A study of Rattus norvegicus with 2 samples.

Results

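The Reg genes encode small secreted proteins that consist largely of a C-type lectin domain, and 4 of them, Reg1a, Reg3a, Reg3b and Reg3g, were examined in duodenal mucosa of an immobilized and a control rat. All probe sets of the rat U34A array annotated to these genes were taken, which gave 5 of 8799 probe sets (4 of 4736 genes). The family was chosen by the low Reg3b and Reg3g signals seen in this same contrast, so its values are a description and no test is made of them. The immobilized rat spent 2 weeks in an immobilization cage, and the control rat the same 2 weeks in a metabolic cage. Both were male Wistar rats aged 15 weeks, and the labels give duodenal epithelial cells as the material. Each condition had 1 array and the labels describe 1 rat each, so the variation between animals is unknown and no p-values were computed. Immobilization and the kind of cage differed together and cannot be told apart. Between these animals Reg3b was 5.25-fold lower and Reg3g 3.94-fold lower in the immobilized rat, Reg1a differed by less than 2-fold, and Reg3a stayed under the signal floor.

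In the gut, Reg3b and Reg3g are known from the mouse as antibacterial proteins of enterocytes and Paneth cells. There, Reg3g binds bacterial peptidoglycan, and both genes are induced by bacteria through Myd88 and by interleukin signalling through Stat3. Reg1a encodes lithostathine, also called pancreatic stone protein, which is abundant in pancreatic juice. The Reg3 genes are also known as pancreatitis-associated proteins, and the annotation lists Pap1 as a synonym of Reg3b, Pap2 of Reg3a and Pap3 of Reg3g. The acinar pancreas is therefore, besides the mucosa, a tissue in which this family is known.

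The 4 genes lie in 1 cluster on rat chromosome 4. In the order of the RefSeq annotation (GRCr8), Reg3b is followed by the pseudogene Reg3b-ps1, then by Reg3a, Reg1a, the non-coding gene LOC102556035 and Reg3g. Reg3g is on the minus strand and the other 3 are on the plus strand. The stretches of 250 bases before each start site are shown because the genes of this one cluster differed in signal, as given further on. The windows were chr4:112419526-112419775 (plus) for Reg3b, chr4:112484739-112484988 (minus) for Reg3g, chr4:112450216-112450465 (plus) for Reg1a and, for the first of its annotated starts, chr4:112430147-112430396 (plus) for Reg3a. Each is written 5′ to 3′ on the gene's own strand, and capitals mark matches to TTCNNNGAA, the letters of a STAT site, and to TATAAA, the letters of a TATA box, on either strand.
Reg3b: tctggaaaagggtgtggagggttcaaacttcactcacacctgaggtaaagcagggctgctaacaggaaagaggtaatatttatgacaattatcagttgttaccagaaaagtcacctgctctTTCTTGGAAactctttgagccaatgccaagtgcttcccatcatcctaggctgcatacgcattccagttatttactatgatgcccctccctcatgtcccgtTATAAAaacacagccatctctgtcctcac
Reg3g: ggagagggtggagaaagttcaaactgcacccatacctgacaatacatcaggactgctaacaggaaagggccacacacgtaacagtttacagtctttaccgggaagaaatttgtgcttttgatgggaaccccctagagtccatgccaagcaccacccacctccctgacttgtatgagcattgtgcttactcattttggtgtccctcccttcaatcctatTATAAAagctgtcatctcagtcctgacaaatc
Reg1a: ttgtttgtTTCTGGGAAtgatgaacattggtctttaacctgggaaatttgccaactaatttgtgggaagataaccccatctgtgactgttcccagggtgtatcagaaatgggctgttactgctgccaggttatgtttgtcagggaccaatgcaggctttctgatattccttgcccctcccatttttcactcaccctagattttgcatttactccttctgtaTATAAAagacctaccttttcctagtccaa
Reg3a: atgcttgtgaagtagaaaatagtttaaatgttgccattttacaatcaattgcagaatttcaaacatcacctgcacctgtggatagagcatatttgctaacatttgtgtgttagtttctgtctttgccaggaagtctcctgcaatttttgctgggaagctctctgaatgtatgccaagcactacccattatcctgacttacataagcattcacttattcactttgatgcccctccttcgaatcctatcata

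The RefSeq windows searched for motifs also held the 50 bases after the start site. TTCNNNGAA matched once in Reg3b, as TTCTTGGAA from 129 bases before the start, and once in Reg1a, as TTCTGGGAA from 242 bases before it. It had 0 matches in Reg3g and Reg3a, and 8.87% of all 33469 promoter windows held it. TATAAA began 29 bases before the start in Reg3b and in Reg1a and 32 bases before it in Reg3g, and 14.2% of all windows held it. Reg1a had a second match after its start, and Reg3a had 0. The C/EBP letters TTGCNNAA matched once in Reg3a (10.6% of all windows), and the AP-1 letters TGANTCA had 0 matches in the 4 genes (7.33%). A loose NF-kB pattern, G in a run at one end and C at the other, was found only in Reg3g among the 4 genes, where matches on both strands overlapped, and 47.3% of all windows held it. Aligned over these windows, Reg3b and Reg3g shared 69.4% of 288 aligned bases, Reg3a shared 72.7% with Reg3b and 73.3% with Reg3g, and Reg1a shared 58.0% with Reg3g, 62.4% with Reg3b and 65.4% with Reg3a. These matches are descriptions of the letters and were not tested as binding sites, and the STAT and TATA matches did not overlap.

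The values are signal intensities, 1 for each probe set and array. Signals of the immobilized rat were raised by a factor of 1.015, which levelled the median ratio, and a floor was set at the median of all signals, 39.9 units. A log2 ratio (immobilized over control) was taken only where both arrays exceeded that floor, which held for 4105 of 8740 probe sets for genes. Error within the arrays was taken from genes with several probe sets, whose log2 ratios had an SD of 0.31 around the gene mean (696 genes, 1570 probe sets). This technical SD contains no spread between animals.

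Reg3b, known in the mouse for action against Gram-negative bacteria, had a signal of 258.2 units in the immobilized rat and 1356 units in the control rat. The log2 ratio was -2.39, or 5.25-fold lower in the immobilized rat. Its probe set M98049_s_at carried the lowest log2 ratio of the 4105 probe sets compared. The signal was nevertheless above the floor on both arrays, at 6.47 times the floor in the immobilized rat.

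Reg3g, the peptidoglycan-binding lectin, had a signal of 325.6 units in the immobilized rat and 1285 units in the control rat (probe set L20869_at). This was a log2 ratio of -1.98, or 3.94-fold lower in the immobilized rat, and the 4th lowest of the 4105. The immobilized rat's signal stood at 8.16 times the floor. Reg3b and Reg3g differed from each other by 0.41 in log2 ratio, less than the 0.44 that the technical SD gives for the difference of a pair of probe sets. Fewer cells that make these transcripts and less transcript per cell cannot be told apart in such bulk RNA.

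Reg1a, the gene of pancreatic stone protein, stayed bright on both arrays and differed by less than 2-fold. Probe set E01983cds_s_at had 1443 units in the immobilized rat and 2074 units in the control rat, a log2 ratio of -0.52 or 1.44-fold lower. Probe set M62930_at had 1453 units in the immobilized rat and 1642 units in the control rat, a log2 ratio of -0.18 or 1.13-fold lower. The gap of 0.35 between these Reg1a probe sets was within the 0.44 for a difference between probe sets. Their log2 ratios ranked 289th and 1263rd from the lowest of the 4105, so the first lay among the lowest 7.04% and the second among the lowest 30.8%. Even the lower Reg1a log2 ratio was 1.46 above that of Reg3g.

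Reg3a, whose human counterpart also acts against bacteria, stayed under the floor on both arrays. Its single probe set D23676_at read 1.62 units in the immobilized rat and 2.4 units in the control rat, and no ratio was formed. This leaves the Reg3a transcript unmeasured here. Reg4, a further family member that RefSeq places on chromosome 2, was not analysed here.

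**Figure D1:**
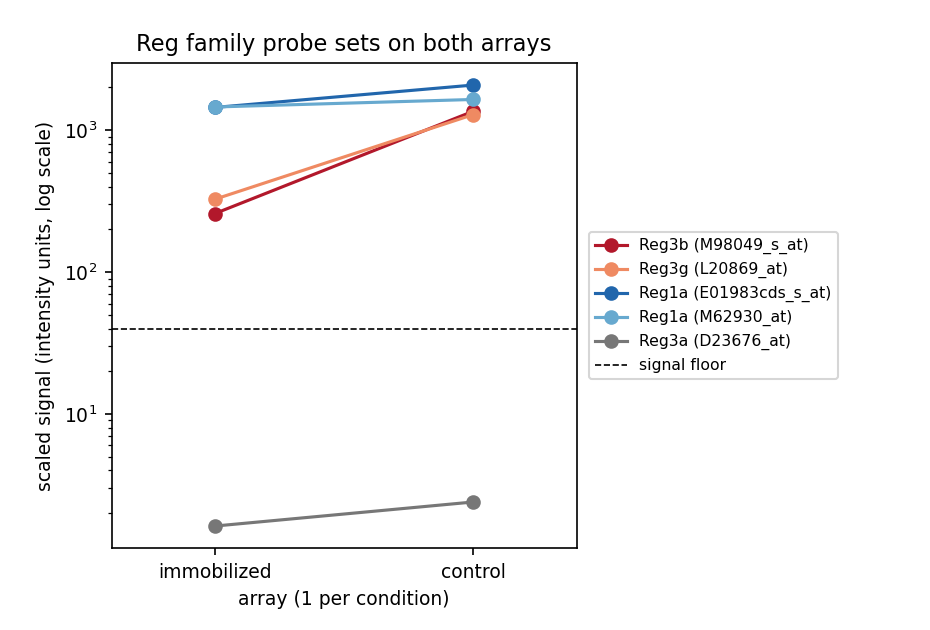
Scaled signal (log axis, intensity units) of each of the 5 Reg family probe sets on the immobilized rat's array (left) and the control rat's array (right), 1 array each, with lines joining the values of 1 probe set and the floor of 39.9 dashed. The Reg3b and Reg3g lines are steep (258.2 and 325.6 units on the left, 1356 and 1285 on the right), the Reg1a lines are nearly level, and Reg3a lies under the floor on both arrays.

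Of the 4 Reg probe sets above the floor, 2 were at least 2-fold lower in the immobilized rat, against a background of 0.853% of the 4105 probe sets (35 of them). At least 2-fold higher were 0 of the 4, against 2.34%. All 4 log2 ratios were below 0, as were 50.1% of all compared. Because low Reg3 signals in this same contrast led to the choice of the family, nothing is read from these shares. The median over the 4 was -1.25 and the mean -1.27, whereas the median over all compared was -0.001 with an SD of 0.44. The spread inside the family was wide, since the mean log2 ratio of the Reg3b and Reg3g probe sets (-2.19) was 1.84 below that of the Reg1a probe sets (-0.35).

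Probe sets with the suffix _s_at, those of Reg3b and 1 of Reg1a, hold probes that more than 1 transcript may share in the array maker's naming. Reg genes resemble one another, and the probe sequences were not used here, so how far the Reg3b and Reg3g readings are separate measurements was not tested. The Reg1a probe set with this suffix had the lower of that gene's log2 ratios.

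**Figure D2:**
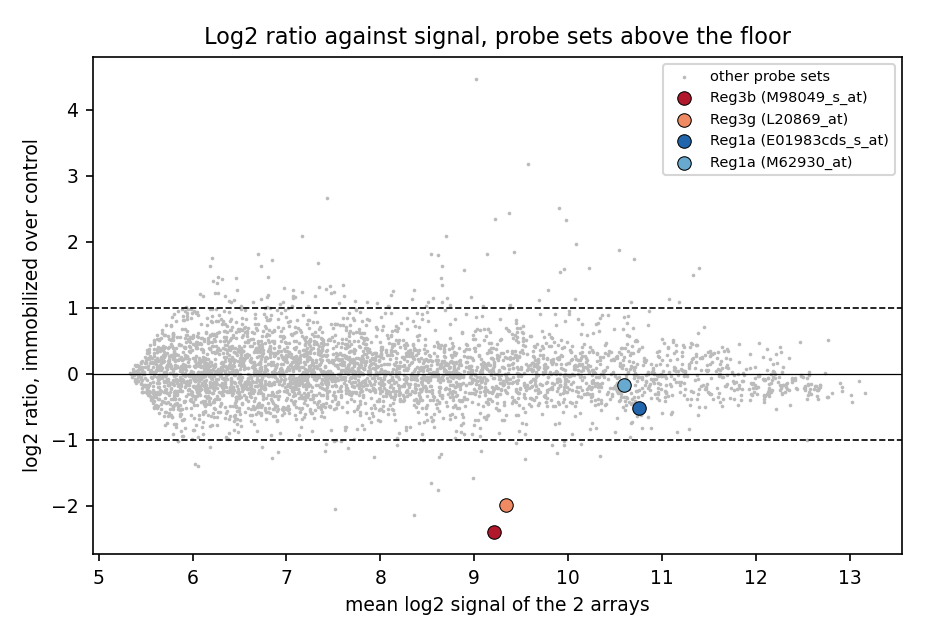
Log2 ratio (immobilized over control) against the mean log2 signal for the 4105 probe sets above the floor, with the 4 Reg probe sets coloured and 2-fold differences dashed. Reg3b (-2.39) and Reg3g (-1.98) lie at the lower edge of the cloud at signals well above the floor, and both Reg1a probe sets lie inside it.

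The other probe sets at the low end show how the Reg3 values rank. Between Reg3b and Reg3g lay 1 probe set of Cyb5a, a cytochrome b5 gene (-2.13), and 1 of Apob, the structural protein of chylomicrons (-2.05). Other probe sets of these genes were much nearer to 0. Cyb5a had log2 ratios of -0.47 and -0.32 at its others, and Apob had 0.08 and 0.25. Reg3b and Reg3g had 1 probe set each, so their ratios could not be set beside a second probe set in this way. With each gene represented by its brightest probe set, Reg3b and Reg3g were the lowest and the second lowest of the 2527 genes above the floor in both rats, and 17 of these (0.673%) were at least 2-fold lower. That order leaves out probe sets above the floor in the control rat only, which have bounds in place of ratios. Among 278 such probe sets, 4 had bounds past the Reg3g fold and 2 past the Reg3b fold. Past the Reg3b fold were Cyp1a1, a cytochrome P450 gene, with 4.06 units in the immobilized rat and 963.4 units in the control rat (at least 24.1-fold lower), and E00717UTR#1_s_at, which has no symbol in the annotation, with 38.6 units in the immobilized rat and 2507 units in the control rat (at least 62.8-fold lower). The next genes with ratios were Cd36, a fatty acid carrier (-1.75), Gpd2, the mitochondrial glycerol-3-phosphate dehydrogenase (-1.58), and Serpinb5 (-1.40). Other probe sets of Gpd2 had -1.27 and -0.63. The genes outside the family nearest to the Reg mean of -1.27 over the 2 arrays were the laminin chain gene Lama3 (-1.28), the brush border enzyme gene Ggt1 (-1.20), Kif13a (-1.19), Rbfox2 (-1.37) and Serpinb5 (-1.40). Rbfox2 and Serpinb5 were near the floor in the immobilized rat, at 40.5 and 41.0 units. With 1 array per condition this likeness is a single number for each gene.

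Genes of the signalling known to act on Reg3b and Reg3g were measured only in part. Of 40 listed, 19 were annotated on the array and 8 exceeded the floor in both rats, 6 of these lower in the immobilized rat, 2 higher and 0 at 2-fold. Their median was -0.31 (-0.59 to -0.26 under other settings), beside 50.6% of all 2527 genes below 0. Ifngr1, an interferon-gamma receptor chain, had 391.0 units in the immobilized rat and 671.3 units in the control rat (-0.78). Jak2, a cytoplasmic kinase bound to cytokine receptors (-0.64), and the cytokine gene Il18 (-0.63, and -0.30 at another probe set) were also lower, and Tnfrsf1a, a tumour necrosis factor receptor, was higher (0.61). Stat3 itself, the transcription factor of this pathway, had 92.4 units in the immobilized rat and 71.6 units in the control rat. Its log2 ratio of 0.37 came from 1 probe set, beside a technical SD of 0.31. The array reads the Stat3 transcript only, and the activity of the protein was not measured. Il6st, the shared receptor chain of the interleukin-6 family, stayed under the floor (6.80 units in the immobilized rat and 11.5 units in the control rat). So did Socs3, a feedback inhibitor of Stat3, with 9.95 units in the immobilized rat and 5.3 units in the control rat. Il22ra1 and Extl3, a proposed receptor for Reg proteins, were not analysed here.

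Other genes known as Stat3 or acute phase targets differed in direction. Of 29 listed, 25 were annotated on the array and 12 exceeded the floor in both rats. Of these, 8 were lower and 4 higher in the immobilized rat, with a median of -0.13 (-0.19 to -0.03 under other settings). Of all 2527 genes, 50.6% were below 0, 0.673% at least 2-fold lower and 2.02% at least 2-fold higher, so nothing particular to these targets is read from the counts. Junb, an immediate early transcription factor, was lower (-0.71, but -0.10 at another probe set). Probe set M13101cds_f_at, annotated to the pentraxin gene Crp, was lower too (-0.64, and -0.54 at another). Whether it read Crp transcript alone was not tested. Fga, a fibrinogen chain gene, was the only one at 2-fold, and it was higher, with 131.1 units in the immobilized rat and 48.6 units, near the floor, in the control rat (1.43). Cebpb, a transcription factor of the acute phase response, was also higher (0.70). The brightest probe sets of the list were those of Irf1 (-0.27) and Fos (0.38, but down to -0.56 over its probe sets).

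The few other lectins above the floor differed little. Of 33 listed, 26 were annotated on the array, 6 exceeded the floor in both rats, and 0 of these reached 2-fold. Of all 2527 genes, 0.673% were at least 2-fold lower, 2.02% at least 2-fold higher and 50.6% below 0. Nothing particular to lectins is therefore read from these counts. Zg16, a lectin of zymogen granules and goblet cell mucus, had 5244 units in the immobilized rat and 6825 units in the control rat (-0.38). The galectin genes Lgals8 (-0.32), Lgals3 (-0.28) and Lgals4 (-0.18) were slightly lower, and the galectin-binding protein gene Lgals3bp was slightly higher (0.28). The median of the 6 was -0.23 (-0.25 to -0.10 under other settings), with 4 lower and 2 higher in the immobilized rat.

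Among other antimicrobial genes listed, most of the few above the floor in both rats went the opposite way to Reg3b and Reg3g. Of 28 listed, 13 were annotated on the array and 6 exceeded the floor in both rats. Of these, 5 were higher in the immobilized rat, 4 by 2-fold or more, against a background of 2.02% of genes. Their median of 1.24 was lower under both other floors, 0.17 at the 30th and 0.50 at the 70th percentile, and 0.78 with probe sets averaged. Lyz2, a lysozyme, had 951.9 units in the immobilized rat and 465 units in the control rat (1.03). Pla2g2a, a bactericidal phospholipase of Paneth cells in many mammals, had 209.4 units in the immobilized rat and 63.4 units in the control rat (1.72). The defensin gene RatNP-3b (1.44) and the nitric oxide synthase gene Nos2 (1.47) were higher from control signals of 53.5 and 46.4 units near the floor, and another Nos2 probe set had -0.42. Dmbt1, a secreted scavenger receptor that binds bacteria, was bright and nearly equal, with 4565 units in the immobilized rat and 4720 units in the control rat (-0.05). Defb1, an epithelial beta-defensin, was above the floor in the control rat only, at least 1.73-fold lower in the immobilized rat. Defa5, a Paneth cell defensin, and Mmp7, which activates such defensins in the mouse, were not above the floor on either array.

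**Figure D3:**
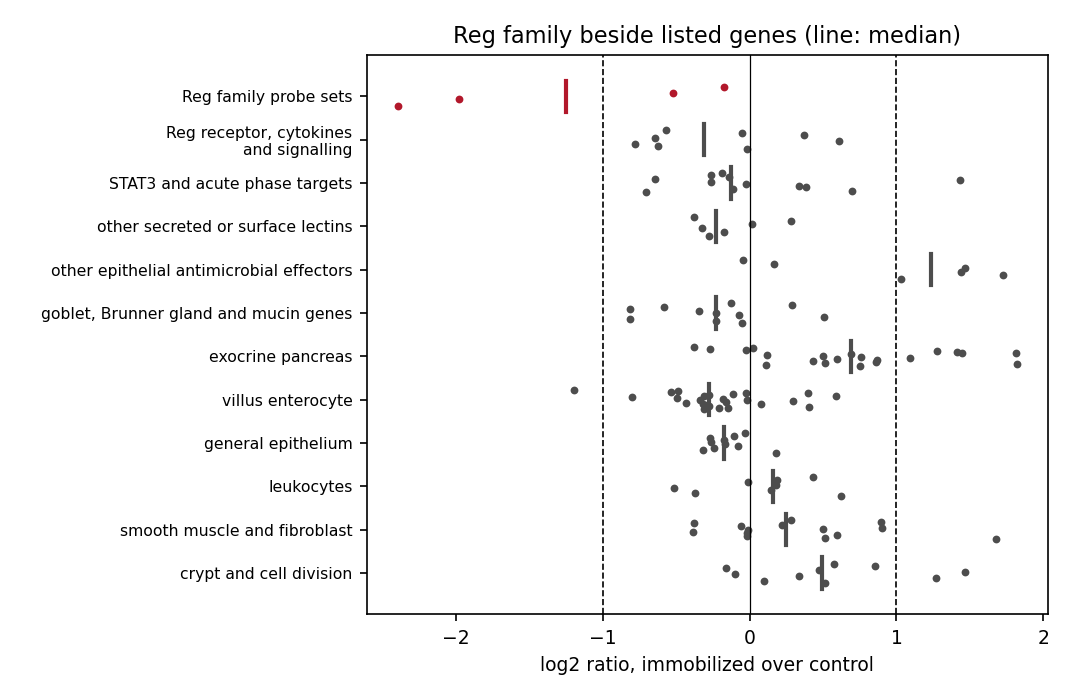
Log2 ratios (immobilized over control) of the 4 Reg family probe sets above the floor (red, top row) and of the genes above the floor in each of 11 lists, 1 point each, with the median as a vertical line and 2-fold differences dashed. The Reg family reaches -2.39, the other antimicrobial effectors have 4 of 6 points above 1, and the exocrine pancreas has a median of 0.69.

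Markers of the duodenal epithelium were slightly lower in the immobilized rat, in the same direction as the Reg genes, where 50.6% of all 2527 genes were below 0. Of 14 goblet cell, Brunner gland and mucin genes on the array, 11 exceeded the floor in both rats, and 9 of these were lower. Their median was -0.23 (-0.25 to -0.13 under other settings), with 0 at 2-fold. Tff1, Tff2 and Egf were above the floor on neither array, so these counts say little of Brunner glands. The summed signal of the 14 was 17464 units in the immobilized rat and 20744 units in the control rat. Lower genes included Muc3 (-0.81, and -0.27 at another probe set), the glycosylation enzyme gene Galnt1 (-0.81) and Muc2, the main mucin of goblet cells (-0.23). The mucin gene Muc4 was higher (0.51). Villus enterocyte genes were lower for 20 of 25, with a median of -0.28 (-0.32 to -0.12), and summed to 86233 units in the immobilized rat and 98105 units in the control rat. By brightest probe sets Ggt1 alone was at 2-fold, where 0.673% of all genes were at least 2-fold lower. Dimmer probe sets passed 2-fold for the sucrase-isomaltase gene Si (-1.66, but -0.28 at the brightest) and Apob (-2.05, but 0.08 at the brightest). General epithelial genes were all 10 above the floor, 9 of them lower, with a median of -0.17 (-0.21 to -0.10). The array's own probe sets for beta-actin and GAPDH, bright genes of general use, were lower by similar amounts, all 6 with log2 ratios between -0.51 and -0.30. The Reg1a values of -0.52 and -0.18 were of this size too, and the part of any such shift in the Reg values was not tested.

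Exocrine pancreas genes ran against the Reg genes. Of 34 listed, 26 were annotated on the array and 21 exceeded the floor in both rats, 18 of them higher in the immobilized rat, 6 by 2-fold or more, where 2.02% of all genes were that much higher and 50.6% were below 0. Their median was 0.69, and the summed signal was 20067 units in the immobilized rat and 14900 units in the control rat. The sum includes the brightest gene of the list, Zg16, also a goblet cell gene and 1 of 3 that were lower. It had 5244 units in the immobilized rat and 6825 units in the control rat (-0.38). Ctrb1, which encodes chymotrypsinogen, had 1054 units in the immobilized rat and 298.9 units in the control rat (1.82), and Amy2a3, pancreatic amylase, had 3384 units in the immobilized rat and 1591 units in the control rat (1.09). Reg1a, itself a gene of pancreatic acinar cells, had log2 ratios of -0.52 and -0.18 on the same arrays. The 3 listed genes above the floor on neither array were Ptf1a, an acinar transcription factor, Spink1, a trypsin inhibitor, and the protease gene Ctrl. Bhlha15, another listed transcription factor gene, was just above the floor in both rats. It had 47.0 units in the immobilized rat and 46.2 units in the control rat. How much pancreatic RNA contributed to the Reg1a, Reg3b and Reg3g signals was not tested.

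Other lists are given beside the share over all genes, of which 2527 of 4736 were above the floor in both rats. Leukocyte genes were above the floor for 8 of 22 with a probe set (median 0.16, or -0.03 with probe sets averaged), and smooth muscle and fibroblast genes for 14 of 19 (median 0.25, or -0.37 with the floor at the 70th percentile). Crypt and cell division genes were above it for 10 of 17, and 8 of those 10 were higher in the immobilized rat (median 0.49). Of all 2527 genes, 50.6% were below 0. These counts were not tested as a measure of which cells were present. The arrays correlated with a Spearman coefficient of 0.96 over all gene probe sets, which are no replicates of a condition. The hybridisation spike-ins read lower in the immobilized rat at 7 of their 9 detected probe sets, with a median of -0.21. Their lowest value was -0.55, and the Reg1a log2 ratios were of similar size. Reg3b and Reg3g were chosen for low values in this contrast, so nothing is read from setting them beside the spike-ins.

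The Reg values moved little under other settings, and for most of these that was set in advance. The scale factors ran only from 1 to 1.023, because the deposited arrays were already near 1 scale. Another floor leaves a ratio of signals well above it almost as it was. The small movement is therefore no support for the values. Over 6 other scalings and floors, the log2 ratio of Reg3b lay between -2.43 and -2.38 and that of Reg3g between -2.00 and -1.97. Those of Reg1a lay between -0.55 and -0.50 and between -0.20 and -0.16.

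**Figure D4:**
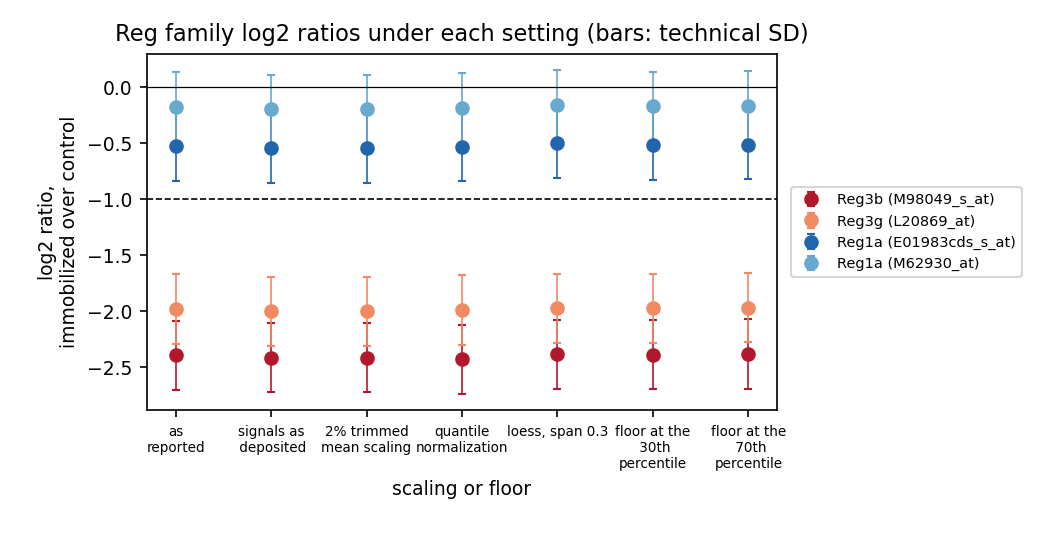
Log2 ratio (immobilized over control) of the Reg probe sets above the floor under the setting reported and 6 others, with bars of 1 technical SD (0.31) that cover error within the arrays only. Reg3b and Reg3g stay near -2.4 and -2.0 throughout, and both Reg1a probe sets stay above the dashed line of a 2-fold difference.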

How the data were processed

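Duodenal mucosa RNA of 1 immobilized and 1 control rat was hybridised to 1 rat U34A array each, and the titles of the samples gave the groups. The deposited values are signal intensities on a linear scale made by the authors, 1 per probe set. Per the submitters' processing notes MAS5 was used, but version 4.0 of the array maker's software is named in the design text, so the algorithm is unsettled. The 2% trimmed mean was 215.9 and 216.0 units, so the authors scaled the arrays to each other. Detection calls were not used here, so the floor, the 50th percentile of all signals, stands in for them.

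Of 8799 probe sets, 59 array controls were left out. Symbols (1 each for 7006 probe sets, several for 308, none for 1426) were updated through the gene ID for 6985, and the brightest probe set represented a gene. Up to 4 genes per list farthest from 0, the brightest 2, all Reg probe sets, their neighbours by rank, the 5 nearest to the Reg mean and the main receptor genes were to be named. Cyb5a, Apob, Si, Cyp1a1, E00717UTR#1_s_at, Defb1, Defa5, Mmp7, Tff1, Tff2, Egf, Ptf1a, Spink1, Ctrl and Bhlha15 fall outside this rule and were chosen after their values were seen. Members and lists were chosen with earlier results of these data known. Alternative settings were no added scaling, trimmed mean, quantile and loess (span 0.3) scaling, floors at the 30th and 70th percentiles, thresholds of 1.5-fold and 3-fold, and the mean over probe sets. Promoters were from RefSeq (GRCr8, all 4 genes matched by symbol), aligned globally. The computation was tested on simulated data. Work was done in Python 3.11.15 with Biopython 1.88, numpy 2.4.6, statsmodels 0.14.6, scipy 1.17.1, pandas 2.3.3 and matplotlib 3.10.9. The number of arrays limits the precision.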

Additional observations from a re-analysis of the deposited data

How the results depend on the processing

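Of 139 values recomputed under the alternatives, 129 moved by less than the technical SD (ranks and counts by at most 1.5 times), 10 moved by more, and 0 changed sign among values at 2-fold. The number of Reg probe sets at least 2-fold lower was 2 under each alternative, the thresholds of 1.5-fold and 3-fold included, and the Reg median lay between -1.27 and -1.24. Most of these settings could move the Reg log2 ratios only slightly, as their scale factors were close to 1. Ranks from the lowest changed because another floor compares other probe sets. With the floor at the 30th percentile (5722 probe sets), Reg3b ranked 4, Reg3g 9 and the Reg1a probe sets 615 and 1926. With the floor at the 70th percentile (2475 probe sets), the Reg1a probe sets ranked 145 and 759. The 3 probe sets below Reg3b under the lower floor had signals of 38.7, 28.6 and 31.9 units in the immobilized rat, under the floor reported. The median of the other antimicrobial effectors, 1.24 as reported, came to 0.17 under the 30th percentile floor, 0.50 under the 70th percentile floor and 0.78 with probe sets averaged, and that of smooth muscle and fibroblast genes came to -0.37 under the 70th percentile floor. The leukocyte median was -0.03 with probe sets averaged. No paired analysis was possible because each condition had 1 array. Signal over background limits the Reg3a value and the other genes named as near the floor.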
